A study of Mus musculus with 23 samples.

Results

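The ileal genes that take up, bind, export and sense bile acids were followed in mouse small intestine RNA across 8 groups of libraries. They were 7 genes of the 19215 entries in the expression table, chosen by symbol: Slc10a2, Fabp6, Slc51a, Slc51b, Nr1h4, Fgf15 and Nr0b2. The symbols were those of the NCBI Gene numbers that identify the entries, and all 7 were found. Of the 7, 5 had a mean of at least 1 FPKM (fragments mapped to a gene, scaled to the length of its transcript and to the size of the library) and entered the tests on 11337 entries. Fgf15 and Nr0b2 lay below that level.

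All mice were male ICR mice, an outbred strain, and all had received busulfan, a cytotoxic drug that damages the intestinal lining, once at 40 mg/kg at 3 weeks of age. On the following day the Sa group began to receive saline, and the other groups began fecal microbiota transplantation (FMT) by gavage, with donors given alginate oligosaccharides (AOS). The donors of A10-FMT had received AOS at 10 mg/kg, those of A100-FMT at 100 mg/kg, and those of Con-FMT the vehicle alone. The luminal contents of the donors were pooled within each donor group, and no group without busulfan was analysed here, so the comparisons describe FMT on a busulfan background only. The sample names divide the libraries by a code into a pair of sets, called set 1 and set 2, and the sources used here do not explain the code. Each treatment in each set had 3 libraries, except Sa of set 1 with 2. The study's methods give FMT for 1 week and sampling at 5 weeks of age and name no sets. This timing was assigned to set 1 only, as an assumption that the sources do not state. It may belong to set 2 or to both, and no test used it.

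Bile acids are made in the liver, released into the gut and recovered mainly in the terminal ileum, the last stretch of the small intestine. Slc10a2 (the apical sodium-dependent bile acid transporter) carries them into the enterocyte, Fabp6 (the ileal bile acid binding protein) binds them there, and the heterodimer of Slc51a and Slc51b exports them toward the portal blood. Inside the cell they activate the nuclear receptor Nr1h4 (FXR), which is known to induce Fabp6, Slc51a, Slc51b, the corepressor Nr0b2 (SHP) and the hormone Fgf15. Fgf15 travels to the liver, where it acts on Fgfr4 with the co-receptor Klb and represses Cyp7a1, the rate-limiting enzyme of bile acid synthesis. Because these genes are strongest in the ileum, their levels are also a guide to the stretch of gut that was sampled.

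The promoters of the uptake, binding and export genes are shown because these 4 genes carry most of the differences below. Each sequence holds the 250 bases before the RefSeq start on GRCm38.p6, read 5′ to 3′ on the strand of the gene. All 4 genes lie on the minus strand: Slc10a2 at chr8:5105288-5105537, Fabp6 at chr11:43601563-43601812, Slc51a at chr16:32487880-32488129 and Slc51b at chr9:65422774-65423023. Capitals mark AGGTCA, the core site of nuclear receptors such as Nr1h4 and its partner Rxra, and TTTATG, the motif of the intestinal CDX factors, on either strand.
Slc10a2: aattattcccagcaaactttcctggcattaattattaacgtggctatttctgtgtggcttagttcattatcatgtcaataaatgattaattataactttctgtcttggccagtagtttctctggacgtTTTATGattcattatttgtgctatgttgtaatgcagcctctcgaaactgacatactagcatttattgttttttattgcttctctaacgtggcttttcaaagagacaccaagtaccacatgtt
Fabp6: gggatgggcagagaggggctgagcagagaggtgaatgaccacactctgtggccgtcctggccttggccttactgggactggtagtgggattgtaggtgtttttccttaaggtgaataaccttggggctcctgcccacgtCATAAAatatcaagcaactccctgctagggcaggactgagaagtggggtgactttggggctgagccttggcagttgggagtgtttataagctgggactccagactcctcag
Slc51a: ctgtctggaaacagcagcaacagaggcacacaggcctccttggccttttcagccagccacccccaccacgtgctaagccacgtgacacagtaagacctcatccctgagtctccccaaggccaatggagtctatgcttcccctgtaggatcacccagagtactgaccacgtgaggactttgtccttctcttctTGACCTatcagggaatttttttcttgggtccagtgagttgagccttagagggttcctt
Slc51b: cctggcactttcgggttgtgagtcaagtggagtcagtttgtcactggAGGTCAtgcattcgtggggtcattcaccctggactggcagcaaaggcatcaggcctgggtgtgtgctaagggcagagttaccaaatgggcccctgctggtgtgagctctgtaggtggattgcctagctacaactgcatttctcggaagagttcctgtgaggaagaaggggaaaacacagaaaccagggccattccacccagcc

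The uptake and binding genes held the CDX letters, 122 to 117 bases before the start of Slc10a2 and 111 to 106 bases before that of Fabp6. Both export genes held the core site, 58 to 53 bases before the start of Slc51a and 203 to 198 bases before that of Slc51b. Over the 27025 mouse promoters of the same length, TTTATG was found in 11.1% and AGGTCA in 13.8%. The inverted repeat of that core site spaced by 1 base, a form that Nr1h4 binds with Rxra, was searched with most of its letters fixed. In that strict form it was in 0.0851% of these promoters and in no member's window. Looser forms were not searched for, and the Fabp6 window holds a repeat that differs from the strict form at 1 fixed letter of each arm. The absence of the strict form therefore does not show that a member lacks such a site. A match is a description of the letters and not of binding. Promoters of 6 of the 7 members were matched, and that of Nr1h4 belongs to a start inside the gene.

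The members were measured at very different levels. Fabp6 was among the most abundant messages, with a mean of 779.63 FPKM and a rank between 49 and 248 of the 19215 entries in every library. Slc51a (mean 186.7 FPKM), Slc51b (122.7 FPKM) and Nr1h4 (48.8 FPKM) followed. Slc10a2 was far lower, at a mean of 7.36 FPKM (range 2.0 to 15.14). The hormone and the corepressor, the receptor's classic targets, were barely detected: Fgf15 had a mean of 0.842 FPKM (0.21 to 2.91) and Nr0b2 of 0.93 FPKM (0.34 to 2.17). No member was listed at 0 in any library.

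The 5 tested members kept this order in every library. Fabp6 stood at 75 to 336 times the level of Slc10a2 (median 107) and at 388 to 2839 times that of Fgf15 (median 1235). The partners of the exporter stayed close together, with Slc51a over Slc51b between 1.19 and 2.39 (median 1.57). The highest ratio, 2.39, and the 336 for Fabp6 over Slc10a2 both belonged to replicate 3 of Sa in set 1. That library stood apart: over the genes it correlated at 0.944 to 0.965 with the 22 others, which correlated with each other at 0.968 to 0.991. Its title and description name different columns of the table. The title's column was used here, and the description's column (0.973 to 0.989) is given as an alternative where it matters.

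As a guide to the region, the genes gave a mixed picture. Of the 10 distal genes other than the members, the highest were the antimicrobial lectins Reg3b and Reg3g, at means of 10097 and 8804 FPKM. The vitamin B12 carrier Tcn2 followed at 128.5 FPKM, and the other distal genes had means from 3.18 to 105.3 FPKM. The highest of the 20 genes typical of the proximal small intestine were abundant in the same libraries. The vitamin A binding protein Rbp2 had a mean of 1676 FPKM, the fatty acid binding protein Fabp1 1152 FPKM and the apolipoprotein Apoa4 978 FPKM. The other proximal genes had means from 0.464 to 152 FPKM, with Trpv6 (0.464 FPKM) and Cybrd1 (0.557 FPKM) below the level tested. Fabp6 over Fabp1 lay between 0.411 and 1.29 in all 23 libraries (median 0.662). The proximal transcription factor Gata4, a repressor of Slc10a2 that ileum normally lacks, had a mean of 52.9 FPKM, and the duodenal factor Pdx1 7.31 FPKM. Genes listed for colon and caecum summed to 4769 to 6852 FPKM, nearly all from Lypd8 (mean 4455 FPKM), Ang4 (835.5 FPKM) and Retnlb (522.8 FPKM). The labels name the tissue as small intestine and give no segment, and the share of each segment in a library was not tested.

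The libraries were epithelial. Krt8 (2533 FPKM), the brush border peptidase Anpep (1573 FPKM) and the fatty acid binding protein Fabp2 (1531 FPKM) led the enterocyte list, and Olfm4 (415.6 FPKM), Pcna (156 FPKM) and Top2a (62.2 FPKM) the crypt and proliferation list. Smooth muscle genes summed to 7.23 to 12.14 FPKM, almost all from Smtn (7.66 FPKM) and Tagln (1.24 FPKM), with the defining Acta2 and Myh11 at 0.033 and 0.011 FPKM. T cell genes summed to 4.03 to 26.31 FPKM (Cd3g 4.09, Cd8a 2.47 and Cd3e 1.504 FPKM on average). B cell and plasma cell genes summed to at most 2.83 FPKM (Cd79b 1.33, Jchain 0.27 and Ms4a1 0.07 FPKM), and Peyer patch genes to at most 2.05 FPKM (Ccl20 0.817, Spib 0.48 and Fcer2a 0.077 FPKM). Liver genes summed to at most 11.77 FPKM (Cps1 2.22, Apoh 1.11 and Ttr 0.847 FPKM) and pancreatic enzymes to at most 3.34 FPKM (Ctrb1 0.159 FPKM). Measured in bulk tissue, fewer cells of a type and less RNA per cell cannot be told apart.

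Slc10a2, the uptake carrier, varied most among the tested members. In set 1 it was at 5.1 and 2.14 FPKM in Sa, at 3.96, 4.2 and 5.62 FPKM in Con-FMT, at 15.14, 6.56 and 13.22 FPKM in A10-FMT and at 7.41, 8.39 and 8.94 FPKM in A100-FMT. In set 2 it was at 10.18, 8.3 and 12.75 FPKM in Sa, at 9.58, 6.66 and 4.84 FPKM in Con-FMT, at 2.0, 4.95 and 5.97 FPKM in A10-FMT and at 6.39, 10.6 and 6.39 FPKM in A100-FMT. The A10-FMT libraries thus held the highest value of set 1 and the lowest value of set 2, and the A10-FMT groups of the sets did not overlap. The Sa groups did not overlap either, with set 2 above set 1.

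Fabp6 followed a similar pattern at a far higher level. Its set 1 values were 632.25 and 718.66 FPKM in Sa, 592.79, 596.12 and 716.52 FPKM in Con-FMT, 1214.68, 923.13 and 1055.24 FPKM in A10-FMT and 1017.55, 770.81 and 787.26 FPKM in A100-FMT. Its set 2 values were 763.21, 724.28 and 1128.25 FPKM in Sa, 960.15, 529.88 and 479.29 FPKM in Con-FMT, 388.98, 528.81 and 750.45 FPKM in A10-FMT and 786.4, 1189.34 and 677.44 FPKM in A100-FMT. All A10-FMT libraries of set 1 lay above all Con-FMT and Sa libraries of set 1, whereas in set 2 the groups overlapped widely.

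For the exporter, the alpha chain Slc51a was the steadier of the pair. Slc51a was at 174.26 and 208.58 FPKM in Sa of set 1, at 170.48, 154.17 and 179.34 FPKM in Con-FMT, at 237.74, 211.23 and 260.44 FPKM in A10-FMT and at 208.44, 192.56 and 184.03 FPKM in A100-FMT. In set 2 the values were 174.5, 201.19 and 219.53 FPKM in Sa, 189.53, 188.0 and 157.75 FPKM in Con-FMT, 131.13, 146.48 and 166.63 FPKM in A10-FMT and 171.74, 200.14 and 166.87 FPKM in A100-FMT. The 3 A10-FMT libraries of set 1 were the 3 highest of set 1, and those of set 2 included the lowest of all 23.

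The beta chain Slc51b spread more. In set 1 it was at 111.24 and 87.29 FPKM in Sa, at 100.28, 98.7 and 108.9 FPKM in Con-FMT, at 183.44, 151.32 and 218.17 FPKM in A10-FMT and at 141.54, 144.06 and 115.97 FPKM in A100-FMT. In set 2 it was at 109.23, 142.78 and 148.12 FPKM in Sa, at 133.07, 130.9 and 103.42 FPKM in Con-FMT, at 66.35, 92.67 and 101.47 FPKM in A10-FMT and at 109.6, 127.12 and 96.22 FPKM in A100-FMT. Slc51b was the member whose A10-FMT group of set 1 overlapped no other group of either set. The ratio of Slc51a to Slc51b was 1.19 to 1.4 in A10-FMT of set 1 and 1.58 to 1.98 in A10-FMT of set 2.

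Nr1h4, the receptor, changed little in comparison, with a highest value 1.504 times the lowest. Its A10-FMT libraries were at 59.04, 50.39 and 52.33 FPKM in set 1 and at 39.25, 42.14 and 47.74 FPKM in set 2, without overlap. The other 17 libraries lay between 40.33 and 57.37 FPKM.

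The targets Fgf15 and Nr0b2 were near the limit of what the table resolves, and their values carry correspondingly wide scatter. Fgf15 was at 1.94, 1.25 and 1.44 FPKM in A10-FMT of set 1 and at 0.3, 0.59 and 0.3 FPKM in A10-FMT of set 2. Its highest values outside A10-FMT were single libraries, 2.91 FPKM in Sa and 2.06 FPKM in A100-FMT of set 2, whose fellow libraries were all at or below 0.62 FPKM. Nr0b2 was at 1.37, 2.17 and 1.13 FPKM in A10-FMT of set 1 and at 0.63, 0.34 and 0.84 FPKM in A10-FMT of set 2.

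**Figure D1:**
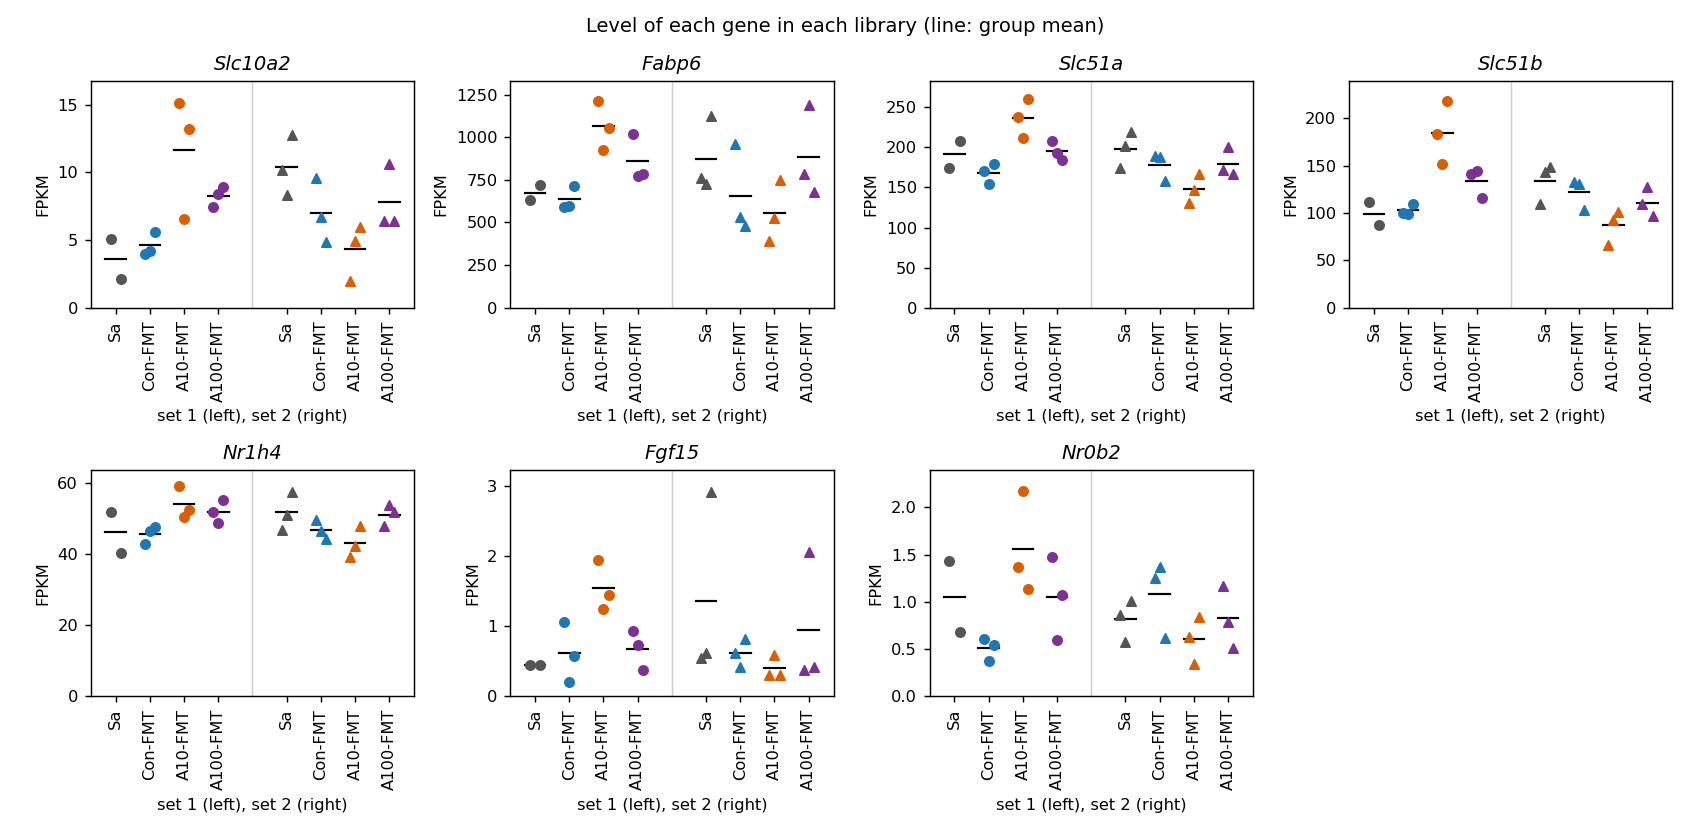
FPKM of each member (vertical axis, starting at 0) in each of the 23 libraries, by treatment, with set 1 as circles on the left, set 2 as triangles on the right and a line at each group mean. The A10-FMT group had the highest mean of all 8 groups for every member in set 1 and the lowest in set 2 for Fabp6, Slc51a, Slc51b, Nr1h4 and Fgf15.

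Ordered by group mean, A10-FMT of set 1 came first for all 7 members. A10-FMT of set 2 came last for Fabp6, Slc51a, Slc51b, Nr1h4 and Fgf15, next to last for Slc10a2 (above Sa of set 1) and next to last for Nr0b2 (above Con-FMT of set 1). Between these ends most neighbours in the order overlapped: of the 7 neighbouring pairs per member, the exceptions were A10-FMT against A100-FMT of set 1 for Slc51b, and A100-FMT against Sa of set 1 for Fabp6. Over the 8 groups the limma F test called Slc10a2 (adjusted p = 0.0213), Slc51a (0.0116) and Slc51b (0.00566), 3 of 5 members, against 33.8% of the entries tested. Fabp6 (0.0712) and Nr1h4 (0.0906) did not pass.

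The first question of the design was whether FMT changed these genes relative to saline. In Sa vs. A10-FMT of set 1, Slc10a2 increased by 1.46 on the log2 scale of FPKM + 1 (SE 0.37, adjusted p = 0.00826) and Slc51b by 0.88 (SE 0.19, adjusted p = 0.00327). These were 2 of 5 members, against 32% of all entries tested, so the share called was near the background. Fabp6 (0.65, adjusted p = 0.101), Slc51a (0.30, adjusted p = 0.0726) and Nr1h4 (0.23, adjusted p = 0.109) did not pass. Without replicate 3 of Sa in set 1 no member was called, while with the description's column in its place 4 were.

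In set 2 the same comparison pointed the other way, and none of the 5 members was called, against 0.423% of entries. The log2 values were -1.17 for Slc10a2 (adjusted p = 0.121), -0.67 for Fabp6 (0.259), -0.42 for Slc51a (0.103), -0.62 for Slc51b (0.104) and -0.26 for Nr1h4 (0.24). Averaged over both sets, the 5 values lay between -0.06 and 0.14 (adjusted p 0.546 to 0.98, against 0.132% of entries called). The average over sets thus held values of opposite sign.

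A100-FMT and Con-FMT were compared with saline in the same way. In Sa vs. A100-FMT of set 1, Slc10a2 increased by 1.08 on the log2 scale (adjusted p = 0.0348), 1 of 5 members against 35.2% of entries, and the call was lost without replicate 3 of Sa. In set 2 the A100-FMT values were -0.39 to 0.01 (none called, background 0.0353%), and over both sets -0.06 to 0.34 (none called, background 0.891%). Sa vs. Con-FMT called no member in set 1 (log2 values -0.18 to 0.34, background 26.9%), set 2 (-0.53 to -0.12, background 0.0353%) or both sets (-0.27 to -0.03, background 0.75%). The 3 comparisons with Sa share the same Sa libraries within a set.

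The second question was whether microbiota from AOS-dosed donors acted differently from that of vehicle donors. In Con-FMT vs. A10-FMT of set 1, which uses no Sa library in its means and was added after the data were seen, all 7 members were higher in every A10-FMT library than in every Con-FMT library. Over the entries tested, 12.2% were higher without overlap in that way. The ratios of group means were 3.07 for Nr0b2, 2.53 for Slc10a2, 2.5 for Fgf15, 1.8 for Slc51b, 1.68 for Fabp6, 1.41 for Slc51a and 1.18 for Nr1h4. The limma test called 3 of 5 members, all increased: Slc10a2 by 1.12 (SE 0.33, adjusted p = 0.029), Slc51a by 0.49 (SE 0.11, adjusted p = 0.0078) and Slc51b by 0.82 (SE 0.17, adjusted p = 0.00389) on the log2 scale. Fabp6 (0.74, adjusted p = 0.0645) and Nr1h4 (0.24, adjusted p = 0.104) missed the threshold.

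Against this, 16.7% of entries were called in either direction in the comparison, and 5.2% were called higher. Of all calls 31.2% were higher as deposited and 60.5% after trimmed-mean scaling, under which all 5 members were called. When the low genes were kept in the fit, Nr0b2 was called as well, with 0.75 on the log2 scale (adjusted p = 0.0315, background 8.56%), and Fgf15 was not (0.68, adjusted p = 0.23). The log2(FPKM + 1) scale understates the change of genes at this level.

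In set 2, Con-FMT vs. A10-FMT gave log2 values of -0.64 to -0.12 with no member called (adjusted p 0.216 to 0.805, background 0.379%). Over both sets the values were 0.06 to 0.26 (none called, and 0% of all entries called). Of the 11337 entries tested, 697 had an unadjusted p under 0.05, a cut that a share of 0.05 passes where nothing differs. Con-FMT vs. A100-FMT called no member in set 1 (0.18 to 0.73, background 0.406%), in set 2 (-0.14 to 0.46, background 0%) or over both sets (0.11 to 0.44, background 0.123%).

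**Figure D2:**
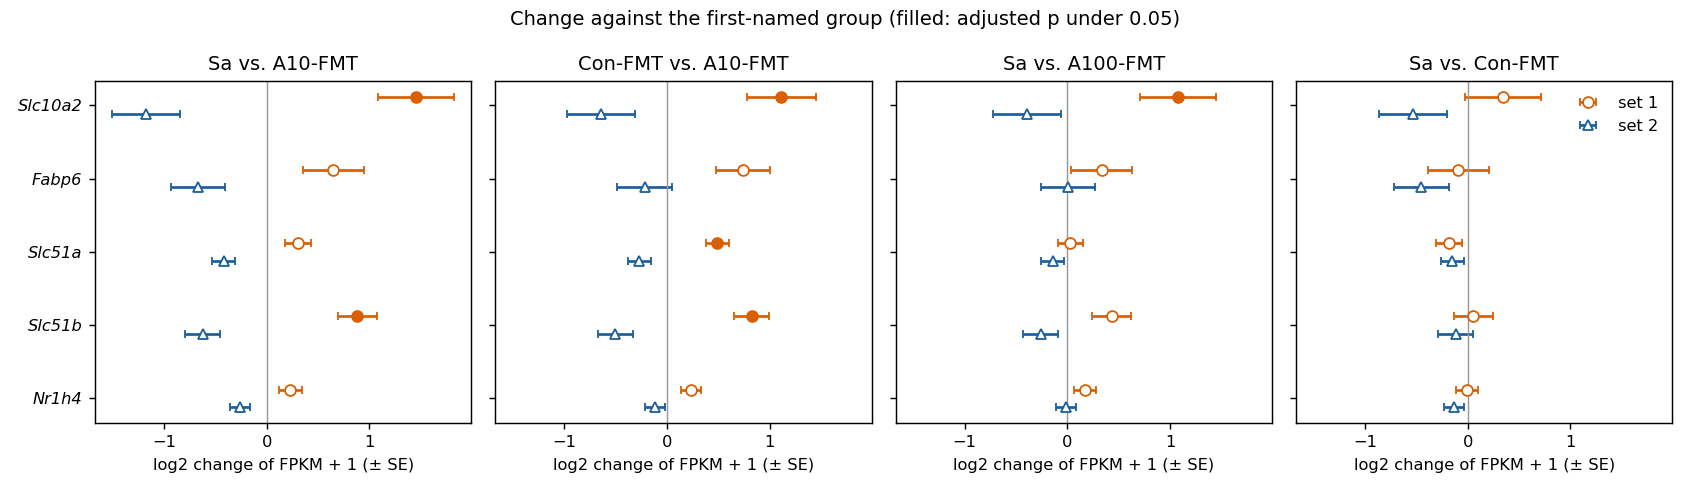
Log2 change of FPKM + 1 with its standard error (horizontal axis) for the 5 tested members in 4 comparisons, set 1 as circles and set 2 as triangles, filled where the adjusted p was under 0.05. In both A10-FMT comparisons every member lay to the right of 0 in set 1 and to the left in set 2, as with Slc10a2 at 1.46 and -1.17 against Sa.

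The A10-FMT groups of the sets were then compared directly, also added after the data were seen. All 7 members were lower in every A10-FMT library of set 2 than in every one of set 1, a pattern found in 14% of the entries tested. The means fell from 11.6 ± 4.5 to 4.31 ± 2.06 FPKM for Slc10a2 (SD, n = 3 and 3), from 1064 ± 146 to 556 ± 182 for Fabp6, from 236 ± 24.6 to 148 ± 17.8 for Slc51a, from 184 ± 33.4 to 86.8 ± 18.3 for Slc51b and from 53.9 ± 4.54 to 43.0 ± 4.32 for Nr1h4. All 5 passed the limma test, with adjusted p of 0.00858, 0.0107, 0.000391, 0.000224 and 0.0195 in the same order. Without replicate 1 of A10-FMT in set 2, which had the lowest value of Slc51b, 2 remained called (Slc51a and Slc51b), and Slc10a2 (0.0524), Fabp6 (0.0591) and Nr1h4 (0.0853) did not pass. The background was 30.4% of entries called in either direction and 8.62% called lower. Of all calls 71.7% were higher in set 2 as deposited, 56.7% after quantile normalization and 41.7% after trimmed-mean scaling, and the members were lower under each.

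For the targets, Fgf15 stood at 1.54 ± 0.356 FPKM in A10-FMT of set 1 and 0.397 ± 0.167 FPKM in set 2 (SD, n = 3 and 3), a ratio of 3.89. With the low genes kept in the fit this difference did not pass (log2 value -0.86, adjusted p = 0.0799, background 16.3%). Nr0b2 stood at 1.56 ± 0.545 and 0.603 ± 0.251 FPKM, and passed in that fit (-0.66, adjusted p = 0.0342).

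In the other FMT groups no member passed between the sets. Con-FMT of set 1 vs. set 2 gave log2 values of -0.02 to 0.49 with no member called (background 0.00882%), and A100-FMT -0.27 to 0.01 with none called (background 0%). In Sa, Slc10a2 was higher in set 2 by 1.36 (adjusted p = 0.0137), 1 of 5 members against 38.1% of entries. That call was lost without replicate 3 of Sa in set 1, and also with the description's column. Averaged over the treatments, no member was called between the sets (-0.17 to 0.12, lowest adjusted p = 0.0624, background 13.3%).

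An interaction term asked whether the effect of A10-FMT was the same in both sets. Against Sa, all 5 members differed, with log2 values in set 2 minus set 1 of -2.63 for Slc10a2 (adjusted p = 0.00144), -1.32 for Fabp6 (0.0208), -0.72 for Slc51a (0.00495), -1.5 for Slc51b (0.000745) and -0.49 for Nr1h4 (0.0194). The background was 28.4% of entries in either direction and 10.6% in this direction. Without replicate 3 of Sa in set 1 the number was 4 of 5, and with array quality weights, which down-weight deviating libraries, it was 0. Against Con-FMT, the interaction called Slc10a2 (-1.76, adjusted p = 0.0144), Slc51a (-0.76, 0.00356) and Slc51b (-1.33, 0.00121), 3 of 5 members against 20.8% of entries. Fabp6 (-0.96, 0.0782) and Nr1h4 (-0.36, 0.0731) did not pass.

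Both interactions use the same A10-FMT libraries and so are not independent of each other. For A100-FMT against Sa, the interaction called Slc10a2 alone (-1.47, adjusted p = 0.0394, background 26.8%), a call lost without replicate 3 of Sa in set 1, and for Con-FMT against Sa no member (-0.87 to 0.03, background 0.00882%). What the set code stands for is not known, so any source of difference between the sets, such as time, cohort or sampling, cannot be told apart from the set.

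Other genes moved with the members between the A10-FMT groups of the sets, in a direction that differed by gene group. Of all entries tested, 30.4% were called in either direction and 8.62% were called lower. Of the 18 tested genes of the proximal list, 11 were lower in set 2 and none higher, with a median log2 value of -0.59 beside 0.12 over all entries tested. Rbp2 fell by 1.10 (adjusted p = 4.36e-05), Fabp1 by 1.23 (0.000439) and Apoa4 by 1.5 (2.86e-05). Of the 10 tested distal genes outside the members, 4 were lower (median -0.48): Tcn2 (-0.50), the cubilin partner Amn (-0.53), the peptide neurotensin (Nts, -0.69) and the amino acid carrier Slc7a9 (-0.53). Reg3b (-0.47, adjusted p = 0.156) and Reg3g (-0.50, adjusted p = 0.0852) did not pass.

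Of the 12 enterocyte genes, 6 were lower, among them Fabp2 (-1.60, adjusted p = 3.5e-05) and Anpep (-0.88, adjusted p = 7.75e-06), 1 was higher (Cdh1, 0.21, adjusted p = 0.00367) and Krt8 did not pass (-0.08, adjusted p = 0.527). Of the 8 crypt and proliferation genes, 6 were higher in set 2 (median 0.40), including Olfm4 (0.59), Pcna (0.32) and Top2a (0.55). The summed FPKM of the enterocyte list was 10527 to 12007 in A10-FMT of set 1 and 7215 to 7906 in set 2, and that of the proximal list 6255 to 7863 and 2647 to 3991. In Con-FMT vs. A10-FMT of set 1, where 16.7% of all entries were called, these lists moved the opposite way. There 8 of 18 proximal and 6 of 12 enterocyte genes increased, 1 enterocyte gene decreased, and 5 of 8 crypt genes decreased. T cell genes summed to 6.25 to 11.69 FPKM in A10-FMT of set 1 and 4.03 to 6.84 FPKM in set 2. The part of these groups of cells in the members' differences was not tested.

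**Figure D3:**
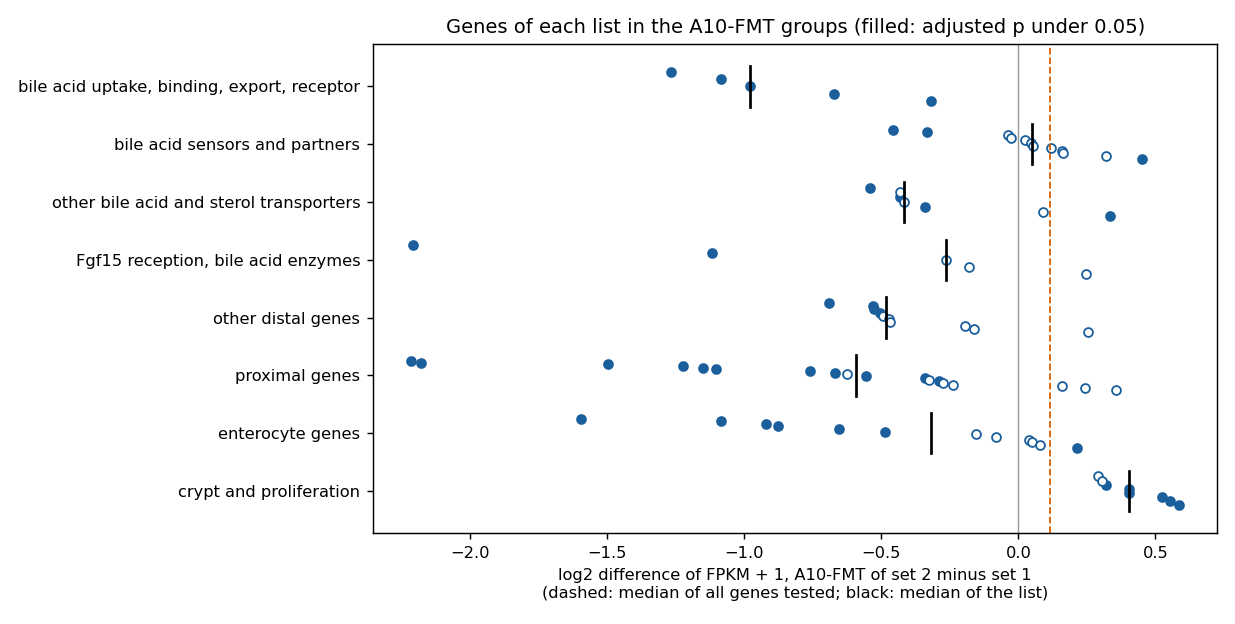
Log2 difference of FPKM + 1 between the A10-FMT groups, set 2 minus set 1 (horizontal axis), with a point per tested gene of each list, filled where the adjusted p was under 0.05, and a black line at the list's median. All 5 tested members and 11 of 18 proximal genes were lower in set 2, and 6 of 8 crypt and proliferation genes were higher. Of all entries tested, 30.4% were called.

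Within the bile acid pathway, calls among the genes around the members went in both directions. Among 12 tested sensors and partner factors, 1 was higher and 2 were lower in A10-FMT of set 2 than of set 1 (median 0.05). Over all entries tested, 30.4% were called, so the share called in this list did not exceed the background. Nr5a2, a factor that Nr0b2 represses, was higher (0.45, adjusted p = 0.0199). The oxysterol receptor Nr1h3 (-0.46, adjusted p = 0.000274) and the xenobiotic receptor Nr1i3 (-0.33, adjusted p = 0.012; named after its value was seen) were lower. The most abundant of the list, Hnf4a (mean 255 FPKM), Vdr (89.8 FPKM) and Nr1h2 (62 FPKM), gave 0.12, 0.04 and 0.05 without passing.

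Of 7 tested bile acid and sterol transporters, 3 were lower and 1 was higher, against 30.4% of all entries called. The sterol exporter subunit Abcg5 (mean 59.9 FPKM) fell by 0.43 (adjusted p = 0.0278), the efflux pump Abcg2 (59.1 FPKM) by 0.34 (0.0157) and Abcb1a, named after its value was seen, by 0.54 (0.0329), while the organic anion carrier Slco2b1, also named so, rose by 0.33 (0.00822). Abcc3 (37.6 FPKM), a basolateral exporter of conjugated bile acids, gave -0.43 (adjusted p = 0.134).

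The list of Fgf15 reception and bile acid enzymes had 5 tested genes, of which 2 were lower, against 30.4% of all entries called. Cyp3a11, a steroid hydroxylase that acts on bile acids, was at 33.6 ± 17.2 FPKM in A10-FMT of set 1 and 5.98 ± 1.24 FPKM in set 2 (SD, n = 3 and 3), and fell by 2.21 (adjusted p = 0.00125). Its relative Cyp3a25 was at 46.9 ± 9.07 and 21 ± 3.47 FPKM and fell by 1.12 (adjusted p = 0.00596). Reads of these closely related genes may have been split between them, so their separate values are uncertain. Malrd1, known to raise Fgf15 output, was at 15.1 ± 2.91 and 12.4 ± 2.06 FPKM and did not pass (-0.26, adjusted p = 0.275). Genes of the liver side of the loop were low in these libraries, with Fgfr4 at a mean of 2.82 FPKM, Klb at 0.064 FPKM and Cyp7a1 at no more than 0.01 FPKM in any library (the last 3 named after their values were seen).

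In Con-FMT vs. A10-FMT of set 1, where 16.7% of all entries were called, 2 of the 12 sensors and partners increased and 2 decreased. Of the 7 transporters 1 decreased, and of the 5 enzymes and Fgf15 reception genes none passed. In Sa vs. A10-FMT of set 1, where 32% of all entries were called, 3 of 7 transporters increased and 1 decreased. Abcg2 gave 0.53 (adjusted p = 0.00262) and Abcg5 0.46 (adjusted p = 0.0342). Sa of set 1 had 2 libraries, with Abcg2 at 37.94 to 57.55 FPKM and Abcg5 at 47.61 to 50.95 FPKM. No value without replicate 3 of Sa is given for these genes.

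The members followed each other from library to library. Of their 21 pairs, 19 correlated over the 23 libraries on the log2 scale (two-sided permutation tests with 100000 resamples, adjusted over the pairs), and Pearson's r lay between 0.304 and 0.881. The highest was that of the exporter chains Slc51a and Slc51b (r = 0.881, Spearman's rho = 0.815, p = 1e-05 for each, the smallest these permutations can give, adjusted p = 5.25e-05), with 0.805 in set 1 and 0.961 in set 2. Without the 2 libraries farthest from the median of Slc51a, r was 0.783, and without replicate 3 of Sa in set 1 alone it was 0.972. Slc10a2 and Fabp6 gave r = 0.787 (p = 4e-05, adjusted p = 0.00012) and rho = 0.841 (p = 1e-05, adjusted p = 5.25e-05), with 0.782 in set 1, 0.886 in set 2 and 0.824 without the 2 farthest libraries. The pairs that did not pass were Nr0b2 with Slc10a2 (r = 0.398, adjusted p = 0.0621) and with Fgf15 (r = 0.304, adjusted p = 0.158). How many pairs of other genes would pass was not computed, so the count cannot be called particular to the members.

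Within groups fewer pairs passed. When each library was expressed as its deviation from the mean of its group, 7 of the 21 pairs passed, all among the 5 tested members. Slc10a2 with Nr1h4 (r = 0.783) and with Slc51b (r = 0.764) then gave the highest values, and no pair with Fgf15 or Nr0b2 passed.

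**Figure D4:**
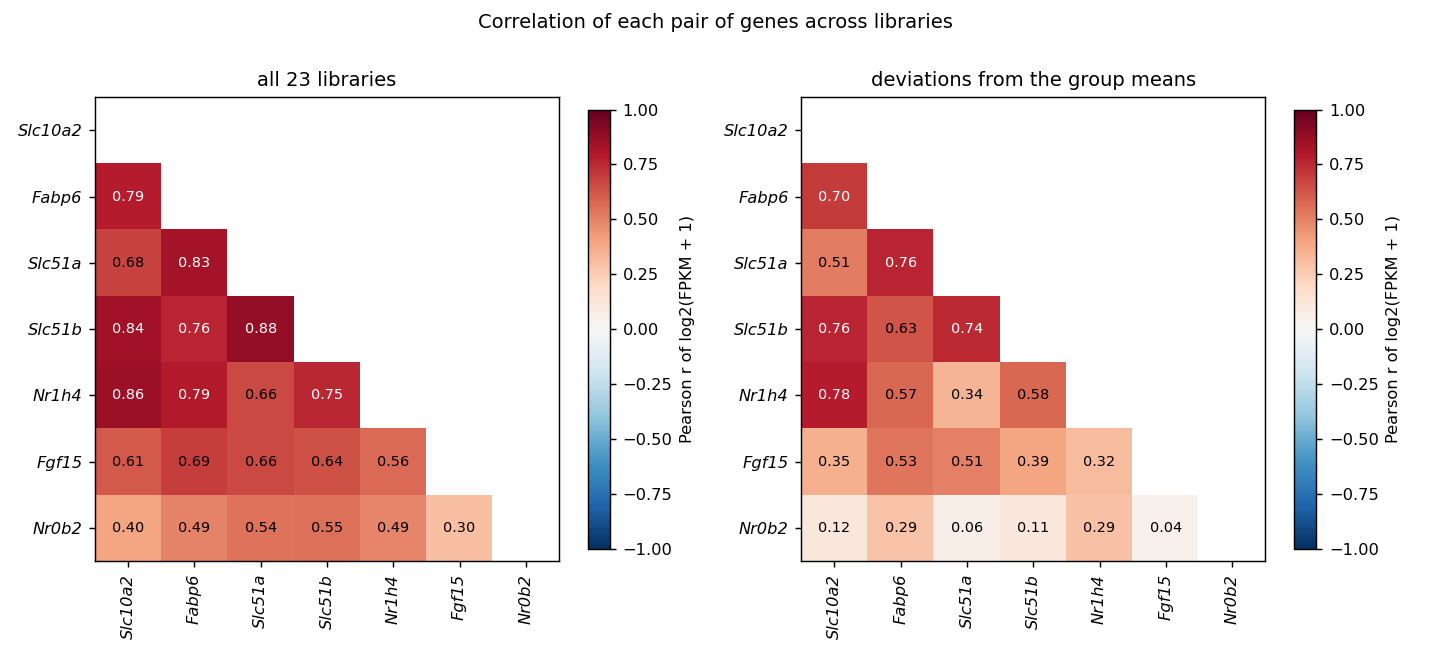
Pearson's r of log2(FPKM + 1) for each of the 21 pairs of members, over all 23 libraries (left) and over the deviations from the group means (right). The 7 pairs that passed on the right were all among the 5 tested members, as with 0.745 for Slc51a and Slc51b, and pairs with Nr0b2 lay at or below 0.293 there.

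**Figure D5:**
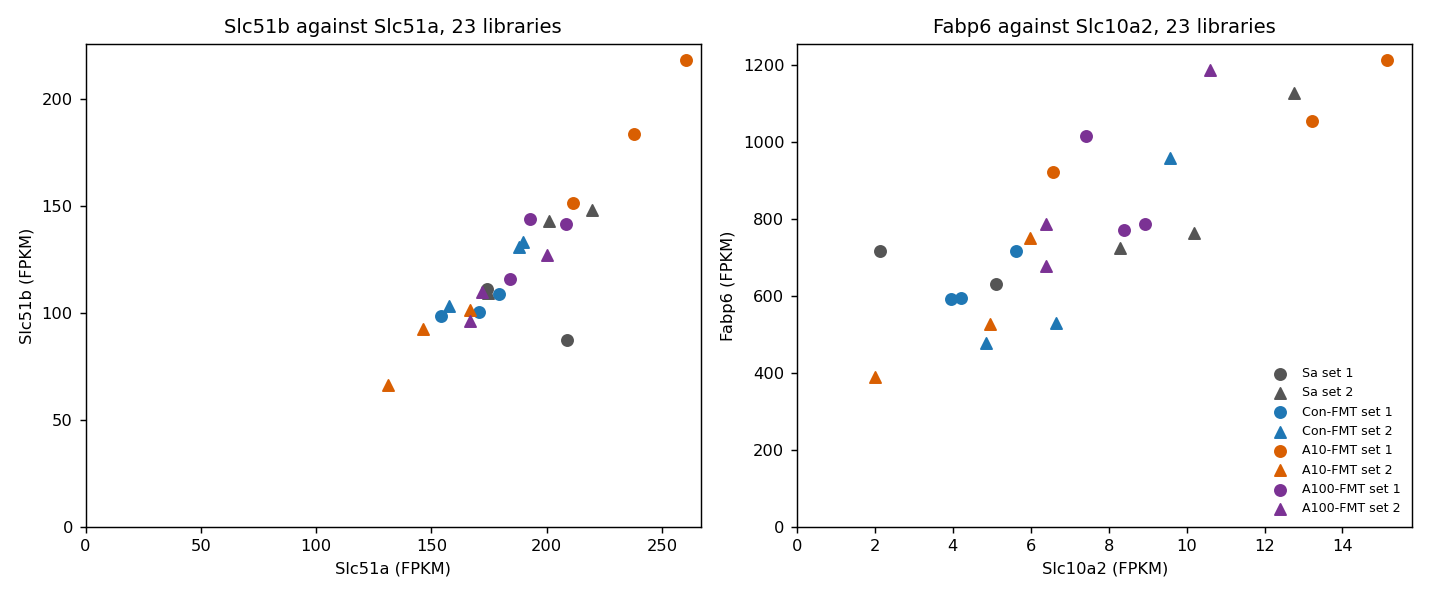
FPKM of Slc51b against Slc51a (left) and of Fabp6 against Slc10a2 (right), a point per library, coloured by treatment, with circles for set 1 and triangles for set 2. The exporter chains lay close to a line (r = 0.881) with 1 Sa library of set 1 below it, at 208.58 and 87.29 FPKM.

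The relation with the region lists was weaker. Between the members and the mean of the proximal or of the other distal genes, 12 of 14 relations passed (r = 0.393 to 0.689), as with Slc51b (0.616 for proximal, rho = 0.622, and 0.684 for distal, rho = 0.718). Fabp6 with the proximal mean did not pass (r = 0.398, adjusted p = 0.0634), nor did Fgf15 (r = 0.393, adjusted p = 0.0634). In set 2 the proximal values were as low as 0.036 (Fabp6). As deviations from the group means none of the 14 passed, with r between -0.507 and 0.449, and the number fell to 5 without replicate 3 and to 7 without replicate 1 of A10-FMT in set 1. How many genes outside the members would pass with these lists was not computed.

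Outside the lists, the genes whose level followed each member most closely were ranked by Spearman's rho over 10605 other genes and the 23 libraries, which share their depth and groups, so the values are descriptions without a test. Slc10a2 was closest to Mgat4c (0.941), Tmigd1 (0.932) and Exoc5 (0.872). Tmigd1 was also among the 3 closest to Fabp6 (0.861, with Suox 0.863 and Mettl7b 0.818) and to Nr1h4 (0.829, with Tinag 0.808 and Lgalsl 0.793). For Slc51a they were Tax1bp3 (0.915), Agpat2 (0.914) and Ppfia3 (0.867), and for Slc51b Ms4a8a (0.914), Fam3b (0.887) and Abhd3 (0.883). The low genes gave lower values: 0.75 for Upk1b, 0.719 for Dstn and 0.703 for Ubap1 with Fgf15, and 0.694 for Marchf5, 0.667 for Ms4a8a and 0.657 for Tmem62 with Nr0b2.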

How the data were processed

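The authors used TRIzol for RNA and an Illumina HiSeq 2500 for sequencing, and their methods give RPKM. The columns of the deposited table are named FPKM, with mm10 as the build in the submitters' processing notes. The aligner is not given in the sources used here. Read numbers are not part of the table, so the depth is unknown and no interval from counts was computed. FPKM summed to 556466 to 667957 per library, and 16.23% of values were 0. No count test was run.

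Groups came from the treatment codes of the labels, and the codes IMC, IMA10 and IMA100 were read as Con-FMT, A10-FMT and A100-FMT from the supplementary sheet titles of the study, since the labels do not explain them. Values were analysed as log2(FPKM + 1), with a linear model of 8 group means in limma 3.58.1 (R 4.3.3, eBayes with trend), over the 11337 entries with a mean of at least 1 FPKM, and Benjamini-Hochberg adjustment over these at 0.05. Fits that kept all entries above 0 gave the values of Fgf15 and Nr0b2. Adding 1 understates the change of low genes. Correlations, ratios and ranks were computed with Python 3.11.15, numpy 2.4.6, pandas 2.3.3 and scipy 1.17.1, and plots with matplotlib 3.10.9. The steps were tested on simulated data. No source used here says whether the libraries of a group came from separate mice, so p-values measure the spread between libraries, which may be technical.

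The members and gene lists were chosen with earlier results of these data known. The lists were bile acid sensors and partners, bile acid and sterol transporters, Fgf15 reception and bile acid enzymes, other distal genes, proximal genes, colon and caecum, enterocytes, crypt and proliferation, liver, pancreas, smooth muscle, T cells, B and plasma cells, and Peyer patch. Genes named are the members, the 3 of each list with the highest mean (those of the pancreas list are at or near 0), the genes of the bile acid, proximal and distal lists called over both sets or between the sets, and the 3 genes most like each member. A gene within this rule is not reported here. Other names were chosen after their values were seen. Con-FMT vs. A10-FMT and vs. A100-FMT within each set, the Con-FMT vs. A10-FMT interaction and the sets compared within a treatment were added after the data were seen. Alternatives were a pseudocount of 0.1, no filter, trimmed-mean scaling, quantile normalization, a filter at a mean of 5 FPKM, only the groups compared, a replicate block, array quality weights, the description's column for replicate 3 of Sa in set 1, and leaving out each library. All 24 value columns were assigned, 1 of them as an alternative only. Promoters came from RefSeq on GRCm38.p6.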

Additional observations from a re-analysis of the deposited data

Results flagged for a closer look

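The effects of A10-FMT and, for a single gene, of A100-FMT differed between the sets by a test of the difference itself, and that of Con-FMT against Sa was not called for any member. For A10-FMT against Sa, the effect in set 2 minus that in set 1 was -2.63 for Slc10a2, -1.32 for Fabp6, -0.72 for Slc51a, -1.5 for Slc51b and -0.49 for Nr1h4 on the log2 scale. Against Con-FMT it was -1.76 for Slc10a2, -0.76 for Slc51a and -1.33 for Slc51b. For A100-FMT against Sa it was -1.47 for Slc10a2. The calls of A10-FMT against Con-FMT held under all 31 alternatives, while those of A10-FMT against Sa fell from 5 to 0 with array quality weights. The A100-FMT call was lost without the filter on low values (adjusted p = 0.0714) and without replicate 3 of Sa in set 1 (adjusted p = 0.283).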

How the results depend on the processing

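No called change of a member reversed: of 3795 alternative values for the members and comparisons, 91 changed sign, and none of these was among the 657 of called changes. Fabp6 in Con-FMT vs. A10-FMT of set 2, not called, ranged from -0.461 to 0.09 when a library was left out, with 0.012 as the other value above 0. Counts of the 5 members called moved as follows. Sa vs. A10-FMT of set 1 (2) became 4 with quantile normalization or the description's column and 0 with only the groups compared or array quality weights (0 to 3 leaving out a library). In set 2 (0) it became 4 with array quality weights and 1 with the description's column (0 to 1). Sa vs. A100-FMT of set 1 (1) became 0 without the filter, with quantile normalization, only the groups compared, array quality weights or the description's column (0 to 3). Sa of set 1 vs. set 2 (1) became 0 with array quality weights and with the description's column (0 to 3). Con-FMT vs. A10-FMT of set 1 (3) became 5 with trimmed-mean scaling or only the groups compared (2 to 5). The sets averaged over treatments (0) gave 1 with trimmed-mean scaling (0 to 1), and the F test (3) gave 5 with the description's column (3 to 4).

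A10-FMT of set 1 vs. set 2 (5) gave 2 to 5 leaving out a library, with 2 without replicate 1 of A10-FMT in set 2, where Slc10a2 (adjusted p = 0.0524), Fabp6 (0.0591) and Nr1h4 (0.0853) were lost. The interaction for Sa vs. A10-FMT (5) became 0 with array quality weights (3 to 5, with 3 without replicate 3 of Sa or replicate 1 of A10-FMT, both of set 2). That for Sa vs. A100-FMT (1) became 0 without the filter, with array quality weights or the description's column, and 2 with a mean of at least 5 FPKM or quantile normalization (0 to 3). That for Con-FMT vs. A10-FMT (3) ranged from 3 to 5, that for Sa vs. Con-FMT (0) from 0 to 1, and Sa vs. Con-FMT over both sets (0) from 0 to 1. Correlated pairs (19) ranged from 19 to 20 and became 7 as deviations from group means, and relations with the region lists (12) ranged from 5 to 14 and became 0. The cause of these shifts was not tested. Trimmed-mean scaling moved the median of all entries by -0.107 in the Con-FMT vs. A10-FMT interaction.

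Whether the replicate numbers pair the libraries is not known. Of 33 pairs with the same number in a set, 10 deviated together with r above 0.1 (range -0.352 to 0.319). Pairs with different numbers are not given beside them, so these values cannot decide it. With the replicate block, Slc10a2 in Sa of set 1 vs. set 2 gave 1.17 and was not called (0 of 5 members in place of 1), Slc51a in Sa vs. A10-FMT of set 1 gave 0.35 and was called, and no other call of a member printed here changed.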

Other observations

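Averaged over the treatments, several pathway and region genes differed between the sets although no member was called. Of all entries tested, 13.3% were called in this comparison. Lower in set 2 were Cyp3a11 (-0.72, adjusted p = 0.0434), the antimicrobial Ang4 of the colon and caecum list (-0.53, adjusted p = 0.0305), the hormone precursor Gcg (-0.29, adjusted p = 0.0267), Apoa4 (-0.28, adjusted p = 0.0491), Rbp2 (-0.24, adjusted p = 0.0406), Nr1h3 (-0.17, adjusted p = 0.019) and Tcn2 (-0.15, adjusted p = 0.0337). Higher were the transcription factors Onecut2 (0.32, adjusted p = 0.0373) and Nr5a2 (0.23, adjusted p = 0.0404). These averages do not hold for each treatment. Ang4 gave -1.64 in Sa (adjusted p = 0.00951) and -0.87 in Con-FMT (0.668), but 0.13 in A10-FMT and 0.28 in A100-FMT. Cyp3a11, Apoa4 and Rbp2 fell further in A10-FMT alone, as given above.

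The gut hormone genes Gcg, the source of glucagon-like peptides, and Cck, cholecystokinin, were called over both sets. In Sa vs. Con-FMT, Gcg increased by 0.48 (adjusted p = 0.044). In Con-FMT vs. A100-FMT, Gcg decreased by 0.55 (adjusted p = 0.0419) and Cck by 0.46 (adjusted p = 0.0308). Ang4 decreased by 1.21 (adjusted p = 0.0169) in the same comparison, where 0.123% of all entries were called. Within the sets, Ang4 gave -1.78 in set 1 (adjusted p = 0.00853, background 0.406%) and -0.63 in set 2 (adjusted p = 0.401, background 0%).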
